A study of Mus musculus with 19 samples.

Results

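The 5 loci described here are windows around Esrrb, Nr5a2, Tfcp2l1, Tbx3 and Prdm14, genes for transcription factors of the naive pluripotency network of mouse embryonic stem cells. The members are all peaks of 5-hydroxymethylcytosine (5hmC) that overlap one of the windows by at least 1 bp in any of 18 deposited peak lists. They number 718 of 1601520 peaks: 360 at Nr5a2, 149 at Esrrb, 87 at Tfcp2l1, 70 at Prdm14 and 52 at Tbx3. On the mm9 build the windows are chr12:87690000-87875000 (Esrrb), chr1:138730000-138870000 (Nr5a2), chr1:120510000-120595000 (Tfcp2l1), chr5:120105000-120150000 (Tbx3) and chr1:13095000-13130000 (Prdm14), 490 kb in all. No mm9 gene annotation was used here, so peaks are placed by position alone, and whether one lies in a promoter, an exon or an intron is not given.

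The study mapped 5hmC by chemical capture and sequencing while pre-iPSCs, stalled intermediates of the reprogramming of mouse embryonic fibroblasts, were converted to induced pluripotent stem cells. All pre-iPSC libraries carry the same treatment label, ascorbic acid at 50 µg/mL with 2i (CHIR-99021, a GSK3 inhibitor, and PD-0325901, a MEK inhibitor), day 0 included. Knockout cells (KO) gave 1 library of KO1 and 1 of KO2 at each of days 0, 2 and 10 (D0, D2 and D10), and wild-type cells (WT) gave 3 libraries a day, A, B and C. V6.5 mouse embryonic stem cells (mESC) gave 1 library each at 0, 12 and 72 hours, under the same treatment label (AA+2i), with no dose stated for them and without replicates. Neither the deleted gene nor its identity in both lines is given in the labels. Nothing there ties replicates to separate cultures, and the spread behind each p-value may therefore be technical.

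5hmC is made when TET enzymes oxidise 5-methylcytosine, a reaction that ascorbic acid promotes, and it is found at enhancers and in the bodies of active genes. Esrrb and Nr5a2 are orphan nuclear receptors of this network, and Nr5a2 can stand in for Pou5f1 in the reprogramming of mouse fibroblasts. Tfcp2l1 is a target of LIF and STAT3 signalling that helps to hold mouse stem cells in self-renewal. Tbx3 is a T-box factor active in stem cells and also in mesenchymal tissues. Prdm14 represses FGF signalling and de novo DNA methylation in naive cells and is needed for germ cell specification.

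The lists carry no read totals, so the number of peaks stands in for depth. KO lists held 61125 to 138474 peaks, WT lists 55134 to 161004 and mESC lists 24130 to 33576. To give lists of unequal length a common measure, the top 55130 peaks, ranked by the authors' -log10 p, were kept in every pre-iPSC list, and the bp they cover in a locus were scaled to the mean total over the 15 libraries. This value is called covered bp below. Differences are on the log2(covered bp + 200) scale, where a group at 0 bp makes the size depend on the added 200 bp, and were tested with limma beside all 10 kb windows of the genome, with Benjamini-Hochberg adjustment over all of them and a threshold of 0.05. A few properties of libraries touch the results: WT D0 C came from a run named without the input library, and KO1 had 11.3%, 14.0% and 12.7% of its covered bases on chromosome 5 at D0, D2 and D10, against 4.34% to 5.34% in KO2 and 5.52% to 6.82% in WT.

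Over the WT time course the 5 loci did not move together. At Tbx3 and Prdm14 the covered bp fell at D10, at Tbx3 to 0 in all 3 libraries, whereas at Nr5a2 and Esrrb the scaled covered bp of D10 and D2 differed by -0.04 and 0.12, and some positions changed. In the full lists, which were longer at D2, unscaled bases under peaks averaged 8238 ± 2154 at D10 and 16051 ± 2451 at D2 for Nr5a2, and 3549 ± 807 at D10 and 6822 ± 2274 at D2 for Esrrb (SD, n = 3 each). Between D2 and D0 none of the 5 loci passed the test (limma; 1 of 5 at an unadjusted p under 0.05), while 14.0% of 15782 windows genome-wide were called higher at D2 and 3.07% lower. Between D10 and D2, 2 of the 5 loci were called lower and 0 higher, against 32.6% and 13.8% of all windows. Between D10 and D0, 1 locus was called lower and 0 higher, against 26.9% and 22.3% of all windows. The median window changed by 0.36 (D2 minus D0), -0.60 (D10 minus D2) and -0.19 (D10 minus D0) on the same scale.

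**Figure D1:**
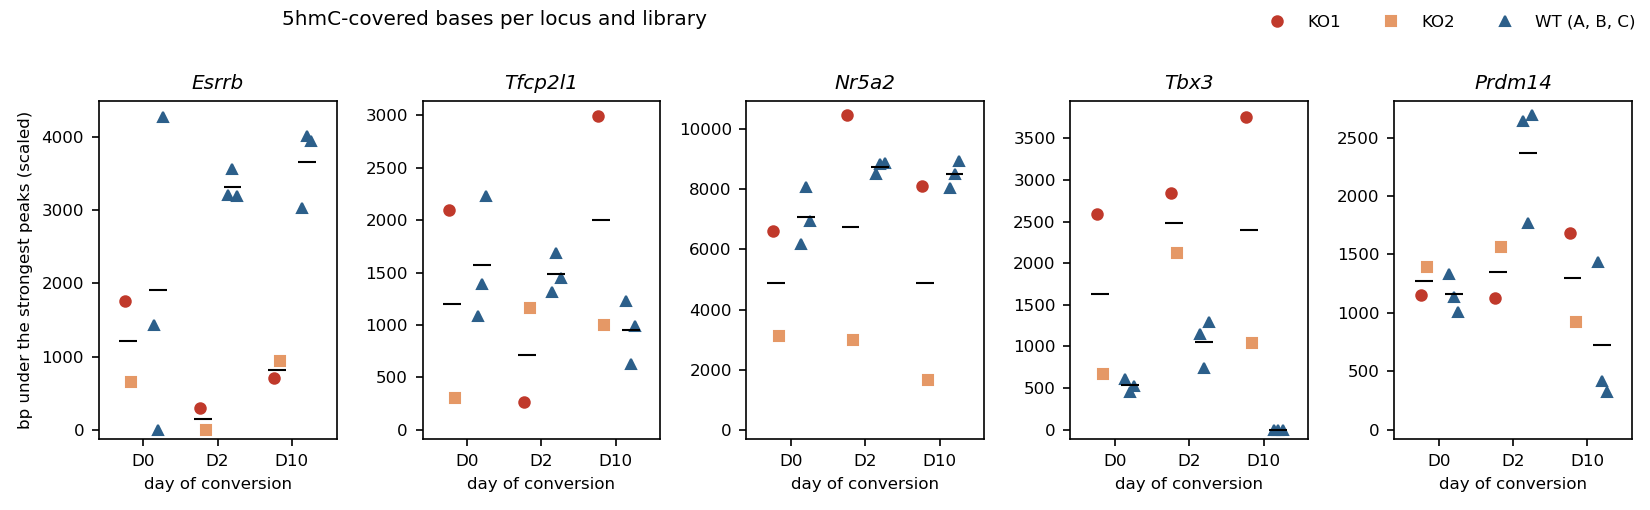
Covered bp (scaled bases under the 55130 strongest peaks) at each locus on days 0, 2 and 10, with KO1 as circles and KO2 as squares on the left of each day, WT A, B and C as triangles on the right, and group means as black lines; each panel has its own linear scale. WT Tbx3 lies at 0 in all 3 D10 libraries, and both KO lines lie below all WT libraries at Esrrb on D2 and D10.

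At Tbx3 the peaks of D0 and D2 were absent at D10. Covered bp in WT were 614, 451 and 529 at D0 (A, B and C), 1152, 737 and 1290 at D2, and 0 in each D10 library. Groups of neighbouring days did not overlap, and in the full lists, too, no WT D10 library held a peak in the window. The difference was -2.63 (SE 0.31, adjusted p = 0.000174) for D10 minus D2 and -1.86 (adjusted p = 0.00103) for D10 minus D0; for D2 minus D0 it was 0.76 (adjusted p = 0.123). Most of this signal came from 1 region, chr5:120130211-120131208, which had a peak in all 6 WT libraries of D0 and D2 and in none of D10. Its peaks spanned 580, 577 and 413 bp in the D0 libraries and 938, 847 and 931 bp in those of D2. A second region, chr5:120118952-120119488, had a peak in the 3 WT D2 libraries and in no WT library of D0 or D10.

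In KO cells the Tbx3 window kept covered bp at D10. KO1 covered 2588 bp at D0, 2849 bp at D2 and 3758 bp at D10, and KO2 covered 669, 2119 and 1039 bp. Both lines lay above every WT library on each day. At D10 the difference from WT was 3.47 (SE 0.55, adjusted p = 0.000600), and Tbx3 was the only one of the 5 loci called in that comparison, in which 20.8% of 15744 windows genome-wide were called higher in KO and 5.06% lower. At D0 and D2 the KO minus WT difference was 1.10 and 1.11 (adjusted p = 0.719 and 0.751). The D10 difference was 2.63 with KO2 alone (adjusted p = 0.00421) and 3.45 with each chromosome scaled on its own (adjusted p = 0.000137), so it was called also without KO1, the line with the larger share of its signal on chromosome 5. The region at chr5:120130211-120131208 held a peak in both KO lines on all 3 days. Its KO1 D10 peak had the highest -log10 p of the authors' values at this locus, 93.8, with a fold enrichment of 19.5, and ranked 55 among the 112303 peaks of that list. The KO2 D10 peak there had a -log10 p of 18.8.

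The change from D2 to D10 was tested between the genotypes by an interaction, KO change minus WT change. At the whole Tbx3 locus it was 2.36 (SE 0.78, adjusted p = 0.0641). It was called in 10 of 31 alternative settings, among them the KO line and WT letter as a replicate block (adjusted p = 0.0296) and each chromosome scaled on its own (2.62, adjusted p = 0.0179). Without KO1 it was 1.72 (adjusted p = 0.113), and without the KO1 D10 library alone 1.53 (adjusted p = 0.265). In the single 10 kb window that holds the main region, from 120130001 to 120140000, the interaction was 2.21 (SE 0.61, adjusted p = 0.0321). Windows were tested only with a mean of at least 500 bp, which this one reached only with the KO libraries included. Covered bp in that window at D10 were 1305 in KO1 and 694 in KO2, against 0 in all WT libraries. The KO minus WT difference was 2.54 (adjusted p = 0.000914, and 0.0016 with no minimum). At D2 the 2 KO libraries (1117 and 1304 bp) and the 3 WT libraries (1152, 737 and 916 bp) overlapped. The window's interaction was called in 19 of 30 alternative settings. It was 1.74 (adjusted p = 0.106) with KO2 alone, 1.51 (adjusted p = 0.155) when centred on the median window, 0.79 (adjusted p = 0.0998) with 1000 bp added and 2.21 (adjusted p = 0.0580) with every window tested.

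At Prdm14 the WT covered bp were highest at D2 and fell by D10, while with all libraries the rise from D0 was not called. WT libraries A, B and C held 1330, 1135 and 1009 covered bp on D0, 2642, 1769 and 2693 on D2, and 1434, 417 and 322 on D10. The D2 libraries lay above all others. The difference was -1.65 (SE 0.41, adjusted p = 0.0103) for D10 minus D2, and did not pass for D2 minus D0 (0.90, adjusted p = 0.160) or D10 minus D0 (-0.74, adjusted p = 0.162). Without WT D10 A, whose value was 3 or more times that of B and C, all 3 were called: D10 minus D2 was -2.16 (adjusted p = 0.000755), D2 minus D0 0.90 (adjusted p = 0.0443) and D10 minus D0 -1.25 (adjusted p = 0.00775).

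Within Prdm14 the windows behaved in 2 ways. The window from 13090001 to 13100000, of which the first 5 kb lie outside the locus, covered 1815, 1723 and 2234 bp at WT D2, against 0, 259 and 332 bp at D0, a difference of 2.53 (adjusted p = 0.00439 with no minimum on covered bp; it passed the minimum of 500 bp through D2 alone). At D10 it covered 669, 417 and 322 bp, -1.69 relative to D2 (adjusted p = 0.0197 with no minimum), a call lost with 50 bp in place of 200 (adjusted p = 0.0735) and in the fit of all 15 libraries (adjusted p = 0.0522). The window from 13110001 to 13120000 covered 913, 809 and 1009 bp at D0, 1391, 726 and 1188 bp at D2, and 0 in all 3 D10 libraries. Its mean over D0 and D10 was 455 bp, so it passed the minimum of 500 bp only with D2 included. With no minimum it was lower at D10 than at D2 by -2.67 (adjusted p = 0.00040) and than at D0 by -2.47 (adjusted p = 0.00043). Its main region, chr1:13118003-13119292, carried peaks in all 6 WT libraries of D0 and D2 and in none of D10. Beside it, chr1:13116839-13117812 carried peaks in the 3 WT D2 libraries alone. The longest region of the locus, chr1:13094300-13095751, straddled the edge of the locus: at D2 all 3 WT peaks crossed into the locus, while at D0 those of A and C lay outside it. The covered bp of the 10 kb window from 13090001 therefore include bases outside the locus and are not a gain of the locus alone.

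In KO cells this second Prdm14 window still held peaks at D10. It covered 764 bp in KO1 and 530 bp in KO2, against 0 in the 3 WT libraries, a difference of 2.07 (SE 0.42, adjusted p = 0.00294). The interaction between D2 and D10 was 2.61 (SE 0.60, adjusted p = 0.0144), and 1.91 (adjusted p = 0.0816) when libraries were centred on the median window, which itself was higher by 0.75 in this contrast. At D0 KO and WT libraries overlapped there (885 and 1048 bp in KO1 and KO2, against 809 to 1009 bp in WT), and at D2 KO lay below WT (641 and 709 bp, against 726 to 1391 bp). The lines differed in which region they held at D10. In the full lists chr1:13118003-13119292 was covered over 906 bp in KO1 and 0 in KO2, and chr1:13116839-13117812 over 407 bp in KO1 and 501 bp in KO2. For the whole locus the covered bp at D10 were 1681 in KO1 and 919 in KO2, against 322 to 1434 in WT, which overlapped (0.85, adjusted p = 0.196). This difference was called in 2 of 31 alternative settings. It was 1.35 (adjusted p = 0.0286) without WT D10 A and 1.96 (adjusted p = 0.0229) with 5 kb cut from each edge. With 10 kb added it was -0.05 (adjusted p = 0.938). The locus interaction of 1.57 (adjusted p = 0.133) was called in the first 2 of these (2.08 and 2.91, adjusted p = 0.0318 and 0.0354).

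**Figure D2:**
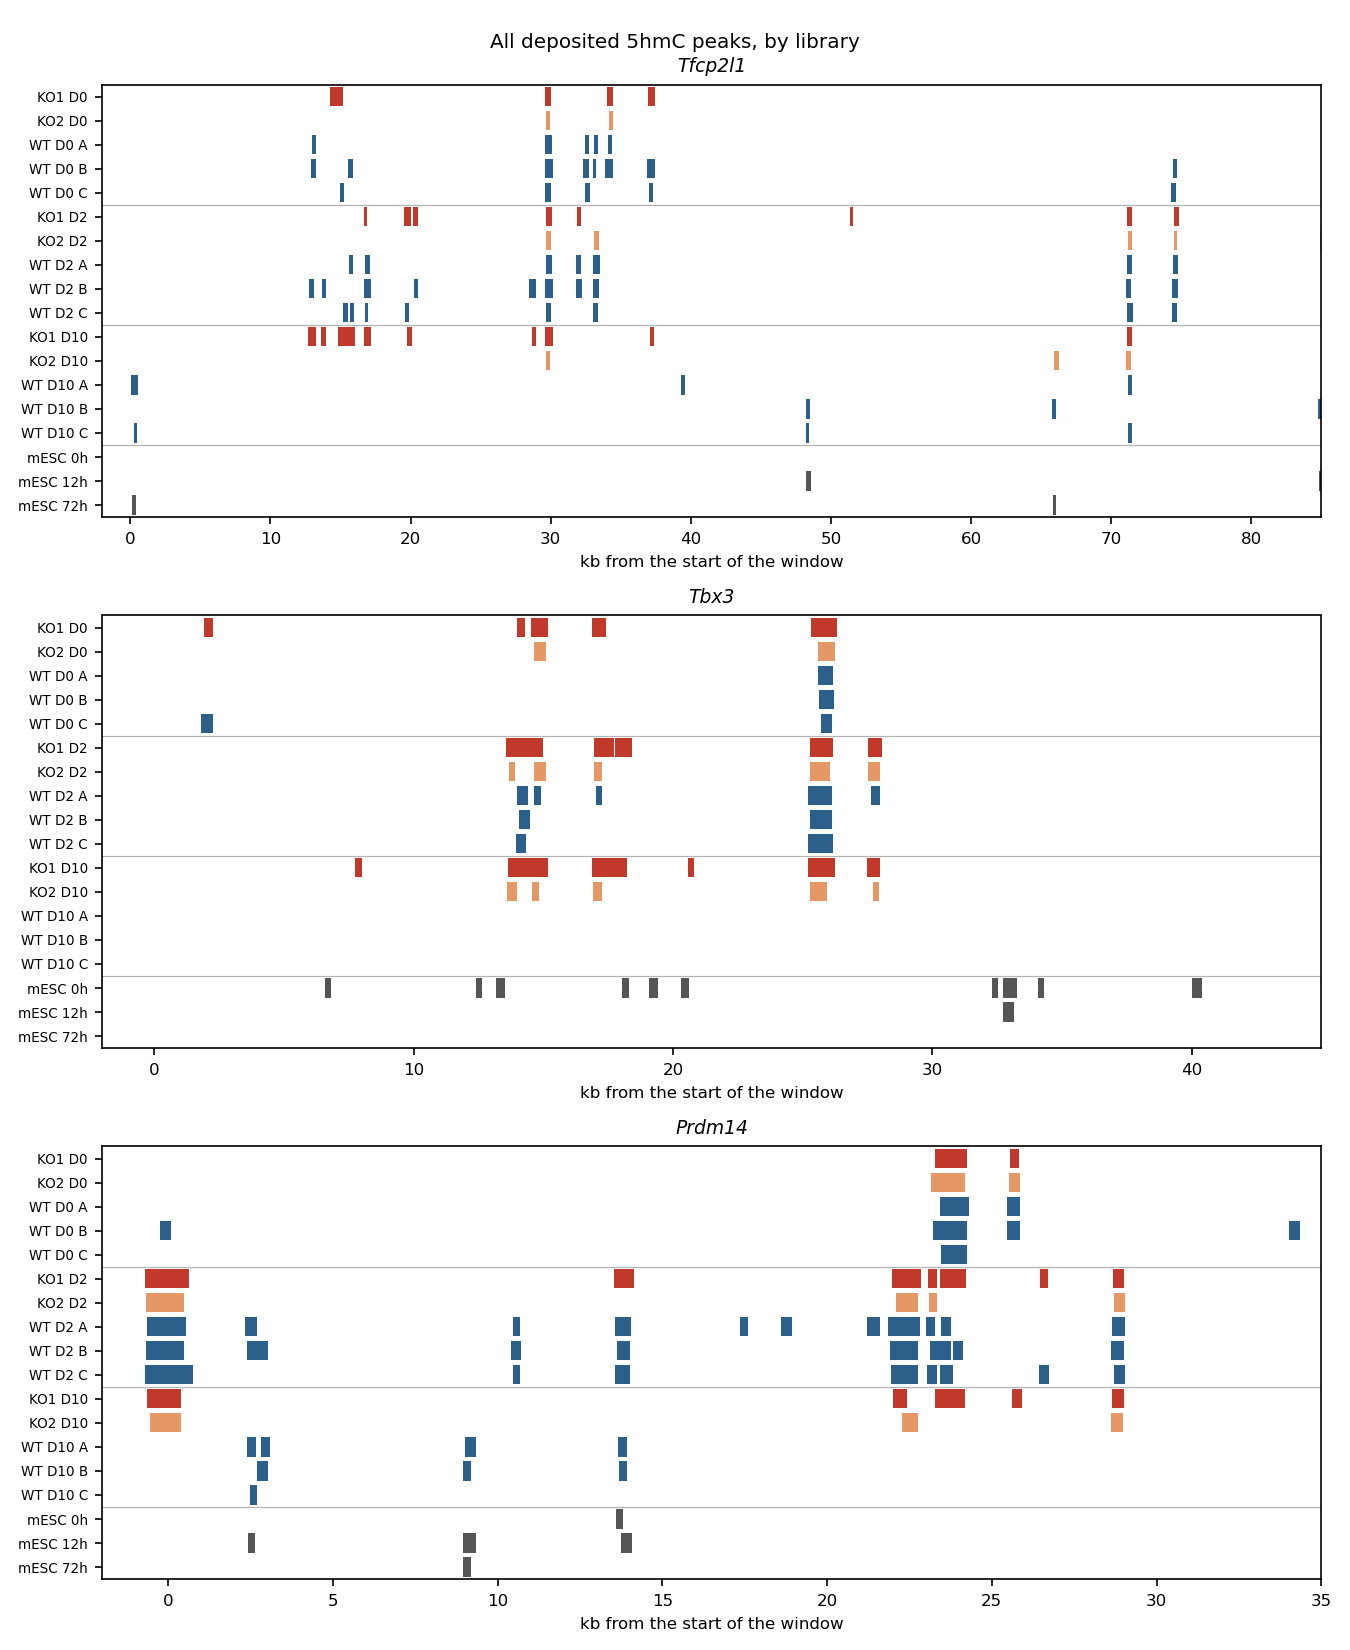
All deposited peaks at Tfcp2l1, Tbx3 and Prdm14, drawn as bars by distance in kb from the window start, 1 row a library, KO rows above WT rows within each day and mESC rows at the bottom; peaks shorter than 0.25% of the window are drawn at that width. The Tbx3 rows of WT D10 are empty, while both KO D10 rows hold peaks at the positions of the D2 rows.

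Nr5a2, the locus with the most peaks, lost some regions and gained others between D2 and D10, while most of its regions of D10 had peaks at D2 too. Of the 8 regions with a peak in all 3 WT D10 libraries, 3 had one in all 3 D2 libraries, 2 in 1 or 2 of them and 3 in none. Covered bp were 6198, 8064 and 6946 at WT D0 (A, B and C), 8510, 8840 and 8892 at D2, and 8054, 8499 and 8962 at D10. The difference was -0.04 (SE 0.16, adjusted p = 0.849) for D10 minus D2, with values of -0.97 to 0.41 over the alternative settings and no call in any. For D10 minus D0 it was 0.27 (adjusted p = 0.180) and was called higher in 4 of 24 alternative settings. They were all deposited peaks scaled (0.40, adjusted p = 0.024), -log10 q of at least 5 (0.32, adjusted p = 0.045), scaling by chromosome (0.46, adjusted p = 0.038) and centring on the median window (0.41, adjusted p = 0.048). With no scaling it was -0.09. The D2 libraries lay above those of D0, but the difference of 0.31 did not pass (adjusted p = 0.199). The authors' highest peaks lay at several positions. The highest -log10 p at D0 was 68.2 (WT D0 B, chr1:138846851-138848006) and at D2 47.2 (WT D2 A, chr1:138848650-138849366), both in the last part of the window, while WT D0 A and C had theirs near its start, at chr1:138745041-138746167 and chr1:138745460-138745925. At D10 it was 15.2 (WT D10 A, chr1:138806758-138807223), in the middle of the window.

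A pair of windows changed in opposite directions. The window from 138840001 to 138850000 covered 1877, 2598 and 1270 bp at WT D0 and 3125, 3528 and 3110 bp at D2. At D10 it covered 321 bp in A and 0 in B and C. The difference was -3.65 (SE 0.41, adjusted p = 0.000141) for D10 minus D2 and -2.89 (adjusted p = 0.000424) for D10 minus D0. The window from 138770001 to 138780000 was at 0 in all 6 WT libraries of D0 and D2 and covered 562, 1905 and 2311 bp at D10. It passed the minimum of 500 bp through D10 alone, and so had to be high there to be tested. With no minimum the difference was 2.99 (adjusted p = 0.00178 against D2 and 0.00126 against D0). In the full lists WT D2 B had peaks of 272 and 234 bp in it and WT D2 C one of 345 bp, none among their strongest 55130. Another window, from 138740001 to 138750000, passed the minimum through D0 alone. With no minimum it was lower at D10 than at D0 by -2.04 (adjusted p = 0.0454), and the call was lost without WT D10 A or without WT D10 B (-1.76, adjusted p = 0.0731 and 0.0767) and with 50 bp in place of 200 (adjusted p = 0.0526).

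KO libraries still covered the first of these Nr5a2 windows at D10 and had no covered bp in the second. In the window from 138840001, covered bp at D10 were 3199 in KO1 and 1283 in KO2, against 321, 0 and 0 in WT. The difference was 3.03 (SE 0.50, adjusted p = 0.000804) and the interaction 3.27 (SE 0.71, adjusted p = 0.0112), with 2.95 (adjusted p = 0.0555) for KO2 alone. At D2 the libraries overlapped (3361 and 2207 bp in KO1 and KO2, against 3110 to 3528 bp in WT). In the window from 138770001, the covered bp of both KO lines were 0 on all 3 days. In the full lists KO1 D2 had peaks there, over 375 bp of chr1:138771705-138772287 and 315 bp of chr1:138774776-138775489. These were not among the strongest peaks used for covered bp. The window from 138770001 fell under the minimum mean of 500 bp in the fit of all 15 libraries and was not tested there. With no minimum, its KO minus WT difference at D10 was -2.99 (SE 0.48, adjusted p = 0.00111) and its interaction -2.99 (adjusted p = 0.0302).

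The KO lines differed from each other at Nr5a2. KO1 covered 6625, 10491 and 8123 bp at D0, D2 and D10, and KO2 covered 3131, 2972 and 1637 bp. KO2 lay below all WT libraries on each day, and KO1 lay among them at D0 and D10 and above them at D2. With both lines the KO minus WT difference was -0.62 at D2 (adjusted p = 0.936) and -1.15 at D10 (SE 0.54, adjusted p = 0.130). Without KO1 it was -1.50 (adjusted p = 0.0182) and -2.24 (adjusted p = 0.000804), and without KO2 it was 0.26 and -0.06. Full lists gave the same order: at D10 KO1 had 25 peaks at the locus and KO2 6, against 28, 23 and 20 in WT.

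**Figure D3:**
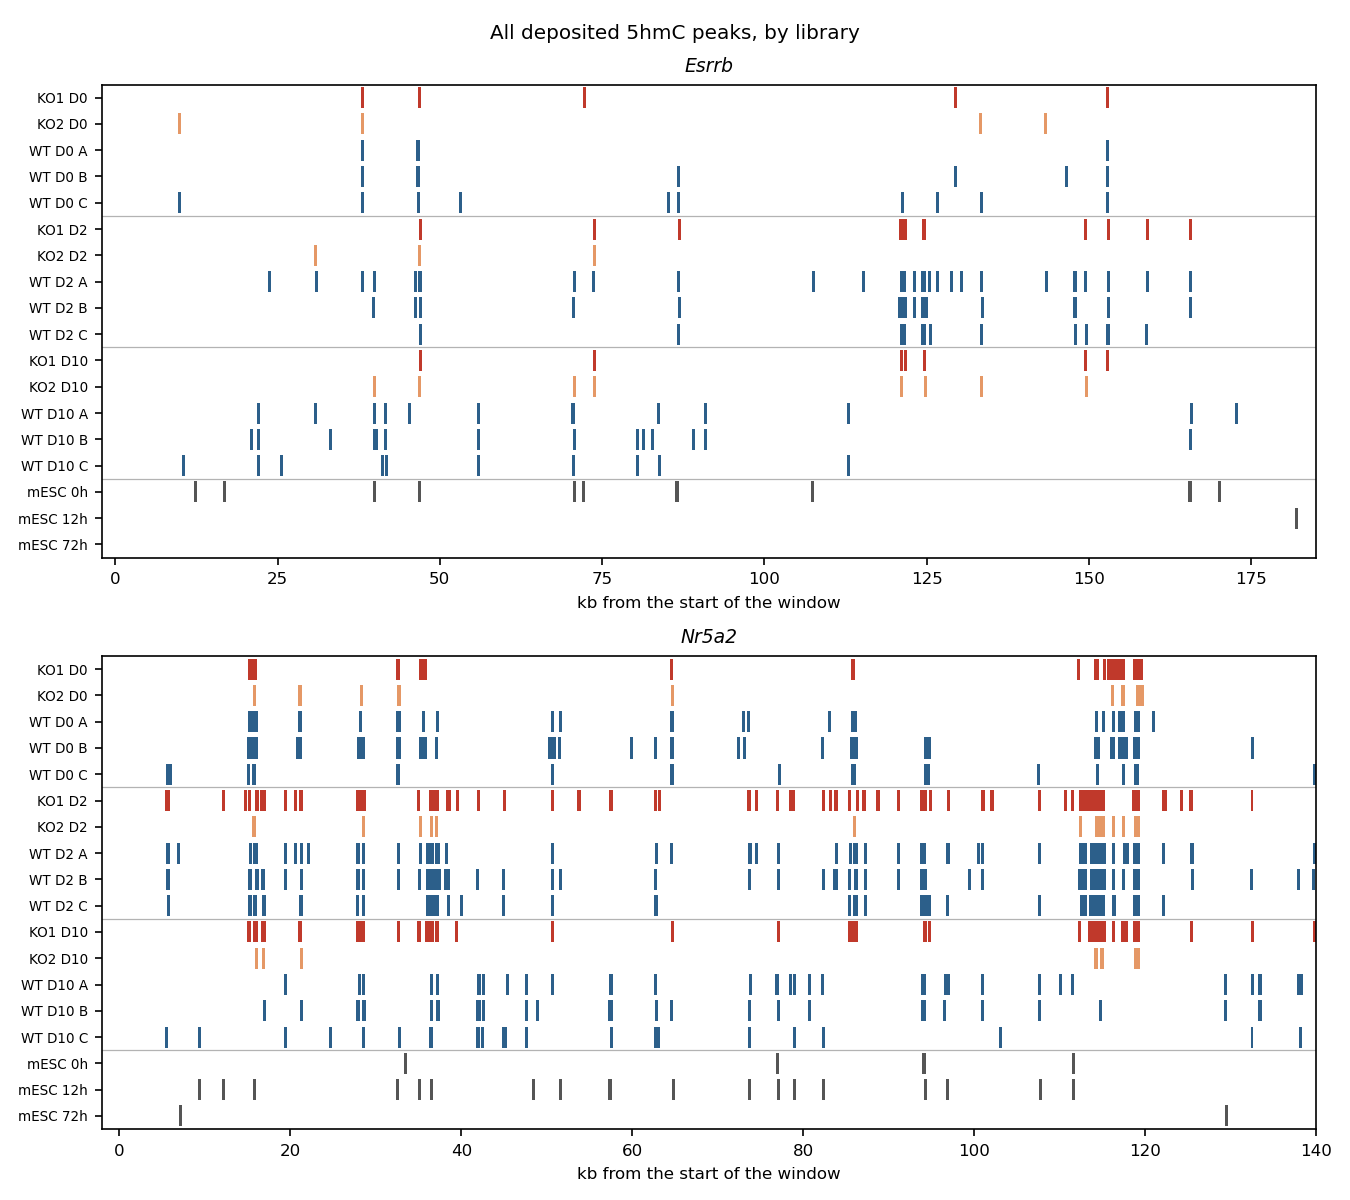
All deposited peaks at Esrrb and Nr5a2, drawn as bars by distance in kb from the window start, 1 row a library, KO rows above WT rows within each day and mESC rows at the bottom; peaks shorter than 0.25% of the window are drawn at that width. Between 110 and 120 kb at Nr5a2 the regions of WT D0 and D2 recur in the KO1 D10 row and only in part in the KO2 D10 row. KO2 D10 has no peak in chr1:138842187-138843245, chr1:138845940-138846646 or chr1:138846851-138848028. The WT D10 rows hold 3 peaks there.

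At Esrrb, too, some regions were lost and others gained between D2 and D10. Covered bp at WT D0 were 1435, 0 and 4278 (A, B and C), so far apart that no change from D0 could be shown. At D2 they were 3205, 3569 and 3202, and at D10 3036, 4023 and 3942. The difference was 1.63 (SE 0.89, adjusted p = 0.234) for D2 minus D0, 1.76 (adjusted p = 0.129) for D10 minus D0 and 0.12 (adjusted p = 0.922) for D10 minus D2. Without WT D0 C, the library with the highest D0 value, the first became 2.62 (adjusted p = 0.0367) and the second 2.75 (adjusted p = 0.0149). WT D0 B held 6 Esrrb peaks in its full list, none of them among its strongest 55130.

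The Esrrb window from 87810001 to 87820000 held 805 bp at WT D0 in C and 0 in A and B, covered 1631, 2026 and 1782 bp at D2, and was at 0 in all 3 D10 libraries. It passed the minimum of 500 bp through D2 alone. With no minimum the difference was 2.55 (SE 0.59, adjusted p = 0.0276) for D2 minus D0 and -3.33 (adjusted p = 0.00443) for D10 minus D2. With the minimum the D2 minus D0 call was lost without WT D0 A, WT D0 B or WT D2 B (adjusted p = 0.0629, 0.0594 and 0.0515). Its regions chr12:87810675-87811940 and chr12:87814080-87815204 had peaks in all 3 WT D2 libraries and in no WT D10 library, and the second of them in no D0 library either. At the other end of the locus, chr12:87711876-87712260, chr12:87731403-87731738 and chr12:87745795-87746072 had peaks in the 3 WT D10 libraries and in none of the other 6. Not all regions of D2 lay in the far part. A region at chr12:87735997-87737217, between these D10 regions, was present in all 6 libraries of D0 and D2 and in none of D10.

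At Esrrb the KO lines held less covered length than any WT library at D2 and at D10. Covered bp at D2 were 294 in KO1 and 0 in KO2, against 3205, 3569 and 3202 in WT. At D10 they were 701 in KO1 and 937 in KO2, against 3036, 4023 and 3942 in WT. Neither difference passed: -3.49 at D2 (SE 0.88, unadjusted p = 0.00120, adjusted p = 0.322) and -1.92 at D10 (SE 0.88, adjusted p = 0.119). At D2 4 of 15744 windows genome-wide (0.0254%) were called lower in KO and 0 (0%) higher, so few that an unadjusted p of this size was not called. The wide spread of WT D0 entered both through the shared estimate of error. Without WT D0 B the adjusted p was 0.0363 at D2 and 0.0139 at D10, and from the D10 libraries alone it was 0.0139. These were the exceptions: the difference was called in 1 of 31 alternative settings at D2 and 3 of 31 at D10, and with single libraries left out the adjusted p reached 0.688 at D2 and 0.357 at D10. With all deposited peaks, scaled, the D2 difference was smaller (-1.62), and in bp of the full lists KO1 (2988) lay above WT C (2617) at D10. Some regions that WT lost from D2 to D10 held D10 peaks in KO1 and KO2. They were chr12:87735997-87737217 (380 and 567 bp), chr12:87810675-87811940 (899 and 319 bp) and chr12:87814080-87815204 (544 and 280 bp). The lost regions chr12:87823178-87823693 and chr12:87842593-87843194 held one in 1 line each. In chr12:87776524-87776966 and chr12:87837612-87838240 neither line had one. No KO D10 library had a peak in any of the 3 regions gained by WT at D10 against D2, a course for which the genome-wide shares with a peak were 2.03% in KO1 and 15.8% in KO2. Another region, chr12:87760266-87760827, gained against D0 only, held a KO2 D10 peak. With no minimum on covered bp, the windows from 87710001 and 87740001, which hold 2 of the regions gained by WT at D10 against D2, were lower in KO at D10 (-2.06, adjusted p = 0.00472, and -1.48, adjusted p = 0.00592), as was the window from 87870001 (-1.72, adjusted p = 0.00370). In the window from 87810001 the interaction of D10 minus D2 was then 4.04 (SE 0.98, adjusted p = 0.0395). Covered bp there were 0 in both KO lines at D2, and 0 in KO1 and 338 in KO2 at D10.

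Tfcp2l1 gave no call with the main settings. Covered bp were 1086, 1394 and 2234 at WT D0 (A, B and C), 1316, 1688 and 1443 at D2, and 1229, 629 and 993 at D10. All D10 libraries lay below those of D2, with a difference of -0.58 (SE 0.31, adjusted p = 0.151), close to the median window's -0.60. The count of deposited peaks was 3 in each WT D10 library, against 7, 10 and 8 at D2. The D10 minus D2 difference passed in 5 of 24 alternative settings. They were all deposited peaks scaled (-0.73, adjusted p = 0.0491) or unscaled (-1.69, adjusted p = 0.0041), and -log10 q of at least 5 (-0.91, adjusted p = 0.0499). The others were no scaling (-1.01, adjusted p = 0.026) and 10 kb cut from each edge (-1.17, adjusted p = 0.0143). With 10 kb added it was 0.05, so it depended on the peaks used, the scaling and where the window ends. D10 minus D0 was -0.61 (adjusted p = 0.129), was called in 5 of 24 settings and was 0.02 with 10 kb added. The longest region lost, chr1:120539563-120540195, had peaks in all 6 WT libraries of D0 and D2 and none at D10. Its peak in WT D0 B had the highest -log10 p of the locus, 56.9.

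In KO cells the same Tfcp2l1 region held a peak in both lines on all 3 days, with 573 bp in KO1 and 289 bp in KO2 at D10. The whole locus covered 2998 bp in KO1 and 997 bp in KO2 at D10, against 629 to 1229 bp in WT (0.80, SE 0.63, adjusted p = 0.366). At D2 both lines lay below WT (268 and 1158 bp, against 1316 to 1688 bp; -1.07, adjusted p = 0.825). KO1 was above WT at D10 and KO2 among it, and without KO2 the difference was 1.51 (adjusted p = 0.0290). The strongest KO1 D10 peak, chr1:120524801-120526034, had a -log10 p of 30.2.

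**Figure D4:**
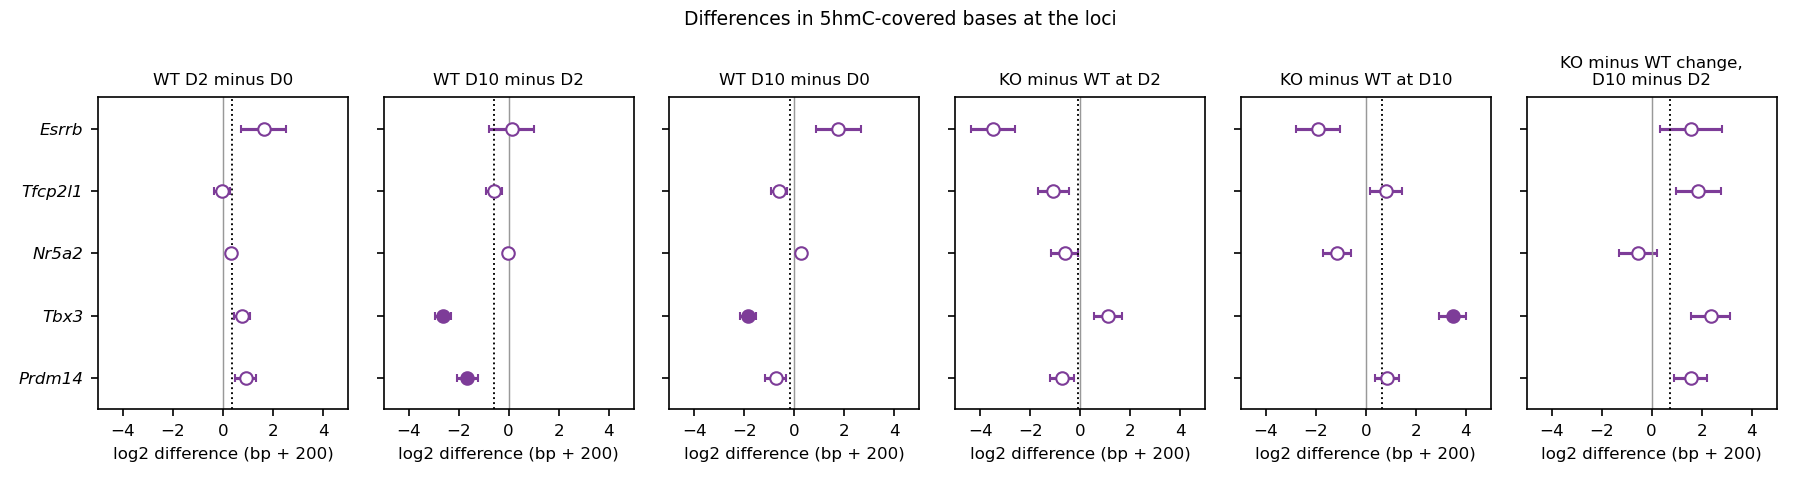
Log2 differences in covered bp (with 200 bp added) at the 5 loci for 6 comparisons, as points with bars of 1 standard error; filled points passed an adjusted p of 0.05, the grey line is 0 and the dotted line the median of all 10 kb windows tested. Filled points are Tbx3 and Prdm14 for WT D10 minus D2, Tbx3 for WT D10 minus D0, and Tbx3 for KO minus WT at D10.

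At D0 none of the 5 loci passed the test between KO and WT (limma; 0 at an unadjusted p under 0.05), and 6 windows genome-wide (0.0381%) were called higher in KO and 2 (0.0127%) lower. At D2 none passed (1 at an unadjusted p under 0.05, Esrrb). For the change from D0 to D2, no locus passed the test between KO and WT (1 at an unadjusted p under 0.05: Esrrb, -3.67, SE 1.24, unadjusted p = 0.00954), and no window of the genome did (0% higher and 0% lower). For the change from D2 to D10, 9.47% of windows had a more positive change in KO and 1.66% a more negative one, and none of the 5 loci as a whole passed (2 at an unadjusted p under 0.05, Tbx3 and Prdm14). KO D10 lists were longer than those of WT (111281 and 112303 peaks against 55134 to 86465), and the median window was higher in KO by 0.66; the part of list length in these differences was not tested.

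Of the 51 windows of 10 kb in the loci, 11 passed the minimum of 500 bp in the fit of WT libraries and 7 in the fit of all 15, so counts of windows describe only those that passed. In WT, 2 were called higher at D2 than at D0 and 0 lower, 1 higher and 4 lower at D10 than at D2, and 1 higher and 3 lower at D10 than at D0. The shares of all windows were 14.0% and 3.07%, 13.8% and 32.6%, and 22.3% and 26.9%. Between KO and WT, 0 were called at D0 and at D2 (0 at an unadjusted p under 0.05 on either day), and 3 higher and 0 lower at D10, against 20.8% and 5.06% of all windows. The 0 lower depended on the minimum, since with every window tested 7 were lower. That setting also called the Tbx3 window from 120120001 higher (2.18, adjusted p = 0.0205), beside the 3 named next. The shares of all windows under it are not given. The 3 higher were the windows from 138840001 (Nr5a2), 120130001 (Tbx3) and 13110001 (Prdm14), each with at most 321 bp in any WT library at D10.

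Single regions were merged from all peaks of the 9 WT lists, with no restriction to strong peaks, so list length can enter the counts below. With the strongest peaks alone, 4 regions were gained at D2 against D0 and 11 lost at D10 against D2. The shares of all regions were then 4.62% and 7.85%. The loci held 149 regions: 62 at Nr5a2, 46 at Esrrb, 21 at Tfcp2l1, 14 at Prdm14 and 6 at Tbx3. A gained region had a peak in each of the later day's 3 libraries and in 0 of the earlier day's, and a lost region the opposite. From D0 to D2, 12 of the 149 regions were gained and 1 was lost, against 8.43% and 2.55% of 296639 regions genome-wide. From D2 to D10, 6 were gained and 25 lost, against 3.36% and 13.9%. From D0 to D10, 9 were gained and 12 lost, against 6.49% and 8.91%. As shares of the 149, these are 8.05%, 0.671%, 4.03%, 16.8%, 6.04% and 8.05%, near the shares of all regions.

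No region of the loci had a peak in all 9 WT libraries, against 1.15% of all regions, and 56 of the 149 (37.6%) had a peak in 1 library alone, against 32.8% of all regions. Of the 39 regions gained or lost between WT days, 12 each lay at Esrrb and Nr5a2, 7 at Prdm14, 6 at Tfcp2l1 and 2 at Tbx3. By course, 10 were present at D2 alone, with at least 1 at each locus. A further 9 were present at D0 and D2 but not at D10, again with at least 1 at each locus. The 6 present at D10 alone lay at Esrrb and Nr5a2, 3 at each.

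The D10 lists of KO were read for these courses, with the genome-wide shares beside them. All 9 regions present in WT at D0 and D2 but not at D10 had a peak in KO1 at D10, and 6 (66.7%) in KO2, against 93.7% and 56.0% of all regions of that course. Of the 10 present in WT at D2 alone, KO1 had a peak in 6 (60.0%) at D10 and KO2 in 4 (40.0%), against 55.1% and 50.6%. None of the 6 present in WT at D10 alone had a peak in either KO line at D10, against 1.51% in KO1 and 14.9% in KO2. For all WT regions lost between D2 and D10, KO1 D10 held 17 of 25 (68.0%) at the loci and 76.7% genome-wide, and KO2 D10 held 12 (48.0%) and 53.2%. Of the 9 regions gained between D0 and D10, KO1 D10 held 0 (0%), against 17.4% genome-wide, and KO2 D10 held 1 (11.1%), against 40.0%. Of the 12 lost between D0 and D10, KO1 D10 held 10 (83.3%), against 69.1% genome-wide, and KO2 D10 held 6 (50.0%), against 31.9%. These shares at the loci were not tested against the genome.

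**Figure D5:**
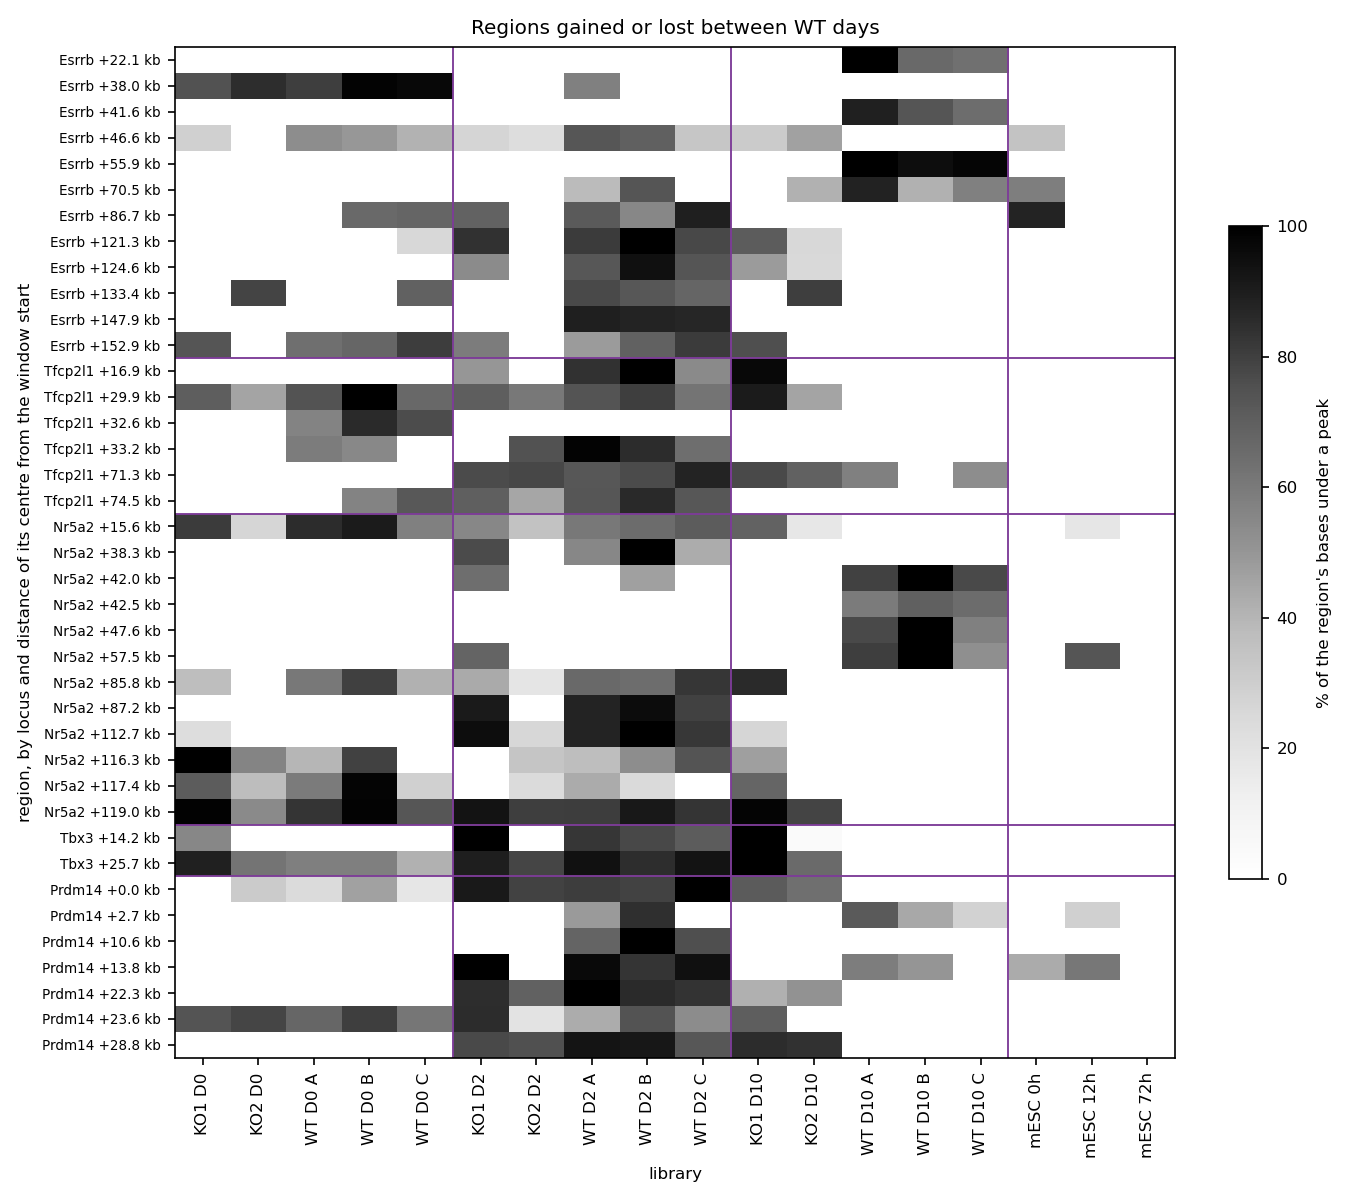
The 39 regions of the loci that were gained or lost between WT days (rows, by locus and by distance in kb of the region's centre from the window start) in each of 18 lists (columns, KO left of WT within each day, mESC on the right); the shade is the percentage of the region's bases under a peak. The 6 rows that are dark in the WT D10 columns alone among WT, at Esrrb and Nr5a2, are empty in both KO D10 columns.

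The mESC lists, 1 a time point, gave values without a spread. The 0 hour list held 25 peaks at the loci, the 12 hour list 25 and the 72 hour list 5, of 30791, 33576 and 24130 peaks. Their make-up differed by locus. Esrrb had 10, 1 and 0 peaks at 0, 12 and 72 hours, and Tbx3 had 10, 1 and 0. Nr5a2 had 4, 18 and 2, Prdm14 had 1, 3 and 1, and Tfcp2l1 had 0, 2 and 2. No test is possible with 1 list a time.

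The mESC peaks at Tbx3 lay apart from those of WT pre-iPSCs. None of the 10 at 0 hours overlapped a WT peak of any day, and 2 overlapped a KO peak. At Esrrb 6 of the 10 overlapped a WT peak, and at Nr5a2 16 of the 18 at 12 hours did. A peak of any mESC list was overlapped by 22.3% of the 103 WT peaks at the loci at D0, 19.5% of the 210 at D2 and 37.4% of the 123 at D10. The same shares over all peaks of these lists were 15.6%, 20.2% and 34.1%. In KO cells 18.2% of the 77 peaks at D10 overlapped an mESC peak (all peaks 20.1%). The 72 hour list alone was overlapped by 5.69% of the WT D10 peaks at the loci and 15.8% of all WT D10 peaks. For the 12 hour list these shares were 27.6% and 19.3%, and for the 0 hour list 11.4% and 9.94%.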

How the data were processed

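Per the labels' protocols, 5hmC in sonicated DNA was labelled with an azide glucose, biotinylated and captured on streptavidin beads. Per the submitters' processing notes, Bowtie, SAMtools and MACS2 were used with mm9, with no version stated. Each of 18 deposited lists gives a peak's score, fold enrichment as a linear ratio, and -log10 of p and q, per the MACS2 layout. These authors' values served only to rank, filter or describe peaks within a list. A label says that peaks were not called for mESC, yet their deposited lists share the layout and were used. The input had no list.

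Covered bp in 10 kb windows, log2(bp + 200), were computed from the 55130 strongest peaks on chromosomes 1 to 19 and X, and windows whose mean was under 500 bp were left out. The 5 loci joined as 5 further features. limma 3.58.1 in R 4.3.3 (trend, robust, Benjamini-Hochberg) was fitted to 9 WT libraries for days and to all 15 for KO. A window belongs to a locus with at least 5000 bp inside it. The limma fit was tested on simulated windows with normal noise on the log2 scale. These were not made with whole groups at 0 bp, so error rates for such windows were not measured. Named are all 5 loci, windows past the threshold, and per locus the longest regions gained or lost and the highest peaks. The members, lists and rules were chosen with earlier results of these data known. Same WT letters did not deviate together (correlations -0.03 to 0.04); the KO line, taken from the titles, did (0.23 to 0.34), and the replicate block is given where it changes a call. Other pluripotency genes were not placed for want of an mm9 annotation.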

Additional observations from a re-analysis of the deposited data

Results flagged for a closer look

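The change from D2 to D10 differed between KO and WT, by the interaction in limma's fit of all 15 libraries, in 3 of the 7 windows of the loci that were tested. In the Nr5a2 window from 138840001 to 138850000 it was 3.27 on the log2 scale (adjusted p = 0.0112), and it was 2.67 (adjusted p = 0.0595) without the KO1 D10 library. In the Prdm14 window from 13110001 to 13120000 it was 2.61 (adjusted p = 0.0144). In the Tbx3 window from 120130001 to 120140000 it was 2.21 (adjusted p = 0.0321), with adjusted p of 0.0144 to 0.105 when single libraries were left out. This Tbx3 window was under the minimum mean of 500 bp in the fit of WT libraries and passed it only with the KO libraries included. With no minimum its interaction was 2.21 (adjusted p = 0.0580) and was not called. With no minimum the Nr5a2 and Prdm14 windows had adjusted p of 0.028 and 0.032. At D10 both KO lines lay above every WT library in each of the 3, and genome-wide 9.47% of windows were called in this direction.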

How the results depend on the processing

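Of 23 reversed values, 0 belonged to a called result; for the values below the cause was not tested except where fewer windows or libraries were used by construction. With all deposited peaks unscaled, Tfcp2l1 D2 minus D0 was 0.46, Esrrb D10 minus D2 -0.88, Nr5a2 D10 minus D0 -0.12 and the Nr5a2 interaction 0.24; with strongest peaks unscaled the first 3 were 0.12, -0.37 and -0.0895. Scaling by chromosome gave Tfcp2l1 D2 minus D0 0.16 and Esrrb D10 minus D2 -0.0224. Nr5a2 D10 minus D2 was 0.13 with all peaks scaled, 0.0227 with -log10 q of at least 5, 0.41 when centred on the median window and 0.00826 with loci widened by 10 kb, and centring gave Nr5a2 D2 minus D0 -0.00299. Widening gave Tfcp2l1 0.0450 (D10 minus D2) and 0.0163 (D10 minus D0), and Prdm14 -0.0453 (KO minus WT at D10). Nr5a2 KO minus WT at D2 was 0.26 without KO2. Leaving out single libraries gave -0.23 to 0.23 (Tfcp2l1 D2 minus D0), -1.50 to 0.26 (Nr5a2 KO minus WT at D2) and -1.62 to 0.56 (Nr5a2 interaction).

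Counts of called loci also moved. Shares of all windows called under these settings are not given, so these counts do not show whether the genome moved likewise. Where all libraries were kept, the locus higher for D10 minus D0 was Nr5a2. With all deposited peaks scaled, and with -log10 q of at least 5, 1 locus was higher and 2 were lower for D10 minus D0 and 1 was higher in the interaction of D10 minus D2. With all deposited peaks and no scaling, 2 loci were higher for D2 minus D0, 2 lower for D10 minus D0 and 1 higher in the interaction. With no scaling 2 were lower for D10 minus D0. Scaled by chromosome, 1 was higher for D10 minus D0 and 1 in the interaction. Centred on the median window, 1 was higher for D10 minus D0 and 1 lower for KO minus WT at D10. A pseudocount of 50 bp gave 1 higher in the interaction, and one of 1000 bp gave 1 lower for KO minus WT at D10, as did a fit of only the libraries of the day. A minimum mean of 2000 covered bp and widening by 10 kb each gave 1 higher for D2 minus D0. With loci cut at the edges, 3 were lower for D10 minus D0, 2 higher for KO minus WT at D10 and 1 higher in the interaction. With letter and line as replicate block, 1 locus (Tbx3) was higher in the interaction, with an adjusted p of 0.0296, and no other call on a locus changed. Without KO1, 1 locus was lower for KO minus WT at D2 and 1 at D10; without KO2, 2 were higher at D10 and 2 in the interaction, both fits chosen after seeing the data. Leaving out single libraries gave 0 to 1 higher for D2 minus D0, 0 to 1 higher and 1 to 2 lower for D10 minus D0, 0 to 1 lower for KO minus WT at D2, 1 to 2 higher and 0 to 1 lower at D10, and 0 to 1 higher in the interaction.

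Counts of called windows inside the loci moved with the minimum. The shares of all windows under each setting are not given, so whether the genome moved with them is not shown. Testing all windows above 0 bp, 7 were higher and 8 lower for D10 minus D2, 7 higher and 6 lower for D10 minus D0, 7 lower for KO minus WT at D10 and 1 lower in the interaction. With a minimum of 2000 bp, 0 were higher for D2 minus D0, 0 higher and 0 lower for D10 minus D2 and for D10 minus D0, and 1 was higher for KO minus WT at D10 and 1 in the interaction. With all deposited peaks scaled, and with -log10 q of at least 5, 4 were higher for D10 minus D2, 2 higher for D10 minus D0, 2 lower for KO minus WT at D10 and 1 lower in the interaction; the q setting also gave 1 higher for D2 minus D0. All deposited peaks with no scaling gave 9 lower for D10 minus D2 and 5 for D10 minus D0. No scaling gave 7 lower and 0 higher for D10 minus D2 and 0 higher for D10 minus D0. The fit of all 15 libraries gave 1 higher for D2 minus D0, 0 higher for D10 minus D2 and 0 for D10 minus D0. Centring left 1 higher in the interaction, a pseudocount of 1000 bp gave 1 lower for D2 minus D0, only the libraries of the day gave 1 higher and 2 lower for KO minus WT at D10, and without KO1 1 was lower. Leaving out single libraries gave 1 to 2 higher for D2 minus D0, 0 to 2 higher for D10 minus D2, 0 to 1 higher and 2 to 5 lower for D10 minus D0, and 1 to 3 higher in the interaction.

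For regions, the strongest peaks alone gave 4 gained and 3 lost for D2 against D0 and 11 lost for D10 against D2. The shares of all regions were then 4.62%, 4.47% and 7.85%. Merging within 500 bp left 0 lost for D2 against D0, requiring 50% of a region under peaks gave 2, and -log10 q of at least 5 gave 2, with 3 gained for D10 against D2. In the same order, the shares of all regions were 2.5%, 2.61%, 2.59% and 2.19%. Leaving out single libraries gave 12 to 23 gained and 1 to 4 lost for D2 against D0, 6 to 11 gained for D10 against D2, and 9 to 19 gained and 12 to 19 lost for D10 against D0. The shares of all regions rose too where these counts were highest. They were then 14.3% (gained, without WT D2 C), 8.56% (lost, without WT D0 C) and 6.36% (gained, without WT D10 C). For D10 against D0 they were 11.5% (gained, without WT D10 C) and 19.0% (lost, without WT D0 C). The lists hold no read counts, so depth limits peak presence in a way that could not be measured.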
